A study of Mus musculus with 12 samples.

Results

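The genes described here let circulating leukocytes slow down on, stick to and cross the vessel wall. They are 9 named genes of the 36400 in the deposited skin table: the selectins Sele and Selp, the selectin ligand core Selplg, the integrin ligands Icam1, Vcam1 and Madcam1, the chemokine binder Ackr1, and the endothelial junction genes Pecam1 and Cdh5. The genes were taken by symbol, but the list was chosen with earlier results of these data known. Shares of members that passed are therefore not those of a blind choice. Pecam1 and Cdh5 were taken as the constant reference against which induced adhesion molecules would be read. Of the 9, 8 had a mean of at least 0.1 FPKM (fragments scaled by transcript length and library size) over the 12 libraries and were tested. Madcam1 did not reach that level.

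RNA was sequenced from dorsal skin of female BALB/c mice, 6 weeks old at the start, with 3 mice in each of 4 groups and skin taken on day 30. Control mice received the vehicle of acetone and olive oil alone. DNCB mice were sensitized with 1% and then repeatedly challenged with 0.5% 2,4-dinitrochlorobenzene (DNCB), a contact sensitizer that gives a dermatitis resembling atopic dermatitis. Mice of both MSC groups received the same DNCB course and 4 injections of 2000000 human umbilical cord mesenchymal stem cells (MSCs) between day 13 and day 25, given either as 100 µL under the dorsal skin (scMSC) or as 50 µL under the skin with 50 µL into the tail vein (scivMSC). The series describes 12 mice in all, whereas the study's methods describe larger groups from which these were sequenced. The model is therefore a chemical dermatitis treated with cells of another species, and no MSC group without DNCB was among the libraries.

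Libraries held between 63877153 and 75134001 estimated counts, which are not numbers of sequenced fragments. Among low counts, 38.9% to 41.2% in each library were multiples of 4, and a fragment was taken to give 4 estimated counts. Replicates of a group correlated at 0.928 to 0.957 (Pearson's r on log2 values across genes, which are not independent replicates). The summed level of the keratinocyte genes Krt5, Krt14, Krt1 and Krt10 was 4346 FPKM or more in every library, as the label of skin implies. The libraries also held other tissues: the summed level of 17 endothelial identity genes ran from 47.8 to 131 FPKM. A gene is said to have risen or fallen only where its Benjamini-Hochberg adjusted p was under 0.05 in edgeR's quasi-likelihood test over 21890 genes (it "passed"), and fold changes are on the log2 scale with their standard error. Libraries that do not overlap between groups are described only, since the share of all genes that separate so was not counted. The median log2 difference over all genes was between 0.0162 and 0.0229 in the 3 comparisons with DNCB. The library scaling itself brings this median near 0, so it cannot show whether RNA as a whole shifted.

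Leukocytes leave the blood in steps. Selectins on activated endothelium catch glycans carried by leukocyte proteins such as PSGL-1 (Selplg) and let the cells roll, chemokines held on the vessel surface activate leukocyte integrins, and the integrins then bind ICAM-1 and VCAM-1 and hold the cells in place. The cells finally pass between endothelial cells whose contacts are built from VE-cadherin (Cdh5) and PECAM-1 (Pecam1). E-selectin (Sele) and VCAM-1 are made mainly on demand after cytokines such as TNF and IL-1 act through NF-kB, whereas P-selectin (Selp) is also stored ready-made in endothelial cells and platelets.

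The promoters of the induced members are shown first, since NF-kB and AP-1 are the factors that textbooks connect with these genes. RefSeq promoter entries (GRCm38.p6) were matched by symbol for 5 of the 9 genes: Sele, Selp, Icam1, Ackr1 and Madcam1. Those of the 3 matched genes that rose with DNCB are given as the 250 bases before the transcription start, on the plus strand, at chr1:164047984-164048233 for Sele, chr1:164115014-164115263 for Selp and chr9:21015690-21015939 for Icam1. Capitals mark every match, on either strand, to TGANTCA (the AP-1 motif), TTCNNNGAA (the STAT motif) or GGANATTCC, a variant of the kappaB motif that was added after these promoters had been read.
Sele promoter: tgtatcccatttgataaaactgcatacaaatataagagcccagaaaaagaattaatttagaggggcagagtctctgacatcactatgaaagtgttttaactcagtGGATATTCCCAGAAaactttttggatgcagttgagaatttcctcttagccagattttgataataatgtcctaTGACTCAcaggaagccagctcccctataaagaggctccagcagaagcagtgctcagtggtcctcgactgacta
Selp promoter: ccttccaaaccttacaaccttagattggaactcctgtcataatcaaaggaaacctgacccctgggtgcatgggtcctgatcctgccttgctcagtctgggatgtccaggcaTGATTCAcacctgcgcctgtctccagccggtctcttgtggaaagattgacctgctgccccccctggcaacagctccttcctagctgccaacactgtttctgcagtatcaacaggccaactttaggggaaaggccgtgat
Icam1 promoter: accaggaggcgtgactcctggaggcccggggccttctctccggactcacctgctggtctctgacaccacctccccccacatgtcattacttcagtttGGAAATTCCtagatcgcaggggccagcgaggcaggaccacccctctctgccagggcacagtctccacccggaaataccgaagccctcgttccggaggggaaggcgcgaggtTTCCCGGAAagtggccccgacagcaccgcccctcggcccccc

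The Sele window held the GGANATTCC match GGATATTCC at 145 to 137 bases before the start, a STAT match TTCCCAGAA at 140 to 132 that shares its first 4 letters with the former, and an AP-1 match TGACTCA at 73 to 67. In Icam1 the GGANATTCC match was GGAAATTCC at 153 to 145 bases before the start, with a STAT match TTCCCGGAA at 42 to 34. These Icam1 positions count from the start of the RefSeq entry, which lies upstream of the gene start at 21015985 given below. Selp had 1 match, the AP-1 motif as TGATTCA at 139 to 133. Of 32851 mouse promoters searched over the same 250 bases, 0.819% held GGANATTCC, 6.75% held TGANTCA and 7.02% held TTCNNNGAA. GGANATTCC was chosen after these promoters were read and fixes more letters than the other motifs. Its low share therefore cannot show that it is enriched in them. The strict kappaB consensus was in 7.25% of promoters and in none of these 3, and searching all 300 bases of each entry added no match in the 3 genes. Among the 5 matched entries the consensus was found only in Madcam1, which did not reach the level for testing. It stood there as GGAAAGCCCC at 83 to 74 and as GGAAAGTCCC at 70 to 61 bases before the start. These are matches of letters and were not tested as binding sites. No promoter entry was matched for Selplg and Pecam1, which also rose, nor for Vcam1 and Cdh5.

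The first comparison asked what the dermatitis did to these genes. In DNCB skin both endothelial selectins, the selectin ligand core, Icam1 and also Pecam1 rose. Selp had the highest fold change of the members at 5.89-fold, Sele rose 4.12-fold, Icam1 2.62-fold, Selplg 2.54-fold and Pecam1 1.94-fold. Thus 5 of 8 members tested rose and none fell, beside 12.9% of all genes that rose and 12.4% that fell.

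Sele (chr1:164048234-164057677, plus strand, GRCm38) encodes E-selectin, which endothelial cells make after activation. Its level was 1.01, 0.318 and 0.623 FPKM in control replicates 1, 2 and 3, and 3.16, 2.21 and 3.81 FPKM in the DNCB replicates. In scMSC skin it was 0.499, 0.405 and 0.406 FPKM, and in scivMSC skin 0.983, 0.848 and 0.171 FPKM. The DNCB libraries stood above all 9 others without overlap, while the other 3 groups overlapped one another. The log2 difference of DNCB from control was 2.04 ± 0.57 (SE, edgeR adjusted p = 0.0227). Without 1 of control replicates 2 and 3 or DNCB replicates 1 and 3 the adjusted p was 0.0564 to 0.0822.

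Selp (chr1:164115264-164150026, plus strand) encodes P-selectin, carried in granules of endothelial cells and platelets. Control replicates had 0.937, 0.421 and 0.447 FPKM and DNCB replicates 3.59, 2.52 and 6.21 FPKM. The scMSC replicates had 1.19, 0.594 and 0.803 FPKM, and the scivMSC replicates 1.77, 2.17 and 0.574 FPKM. Every DNCB library was above every library of the other groups, with DNCB replicate 3 the highest, and the scivMSC group spread from control-like levels to just under the lowest DNCB library. DNCB differed from control by 2.56 ± 0.53 (edgeR adjusted p = 0.00565), and this passed without any 1 library. On limma's log2(FPKM + 1) scale it was 1.62, and that of Sele 1.3, both of which passed. Platelet genes moved in the same direction in part: 3 of 5 tested (Pf4, Itga2b and Ppbp) rose. Gp1bb did not pass, Gp1ba was lower without passing, at -0.83 ± 0.48, and Gp9 was below the 0.1 FPKM limit. The list's summed level was 11.6 to 25.5 FPKM in control and 49.7 to 60.9 FPKM in DNCB libraries. Most of it was Pf4, with means of 14.9 and 51.7 FPKM. How much of the Selp RNA came from platelets was not tested. The gene overlaps Gm16587 and Gm16548 on the other strand, and whether counting used strand is not given in the sources used here.

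Selplg (chr5:113818536-113830501, minus strand, as the deposited table gives it) encodes PSGL-1, the main selectin ligand of leukocytes. Its level was 1.84, 1.5 and 3.03 FPKM in control, 4.41, 7.18 and 6.59 FPKM in DNCB, 2.22, 1.86 and 0.899 FPKM in scMSC and 2.10, 2.36 and 1.54 FPKM in scivMSC replicates. Only the DNCB group stood apart from the others, and it did so from all 3. The difference of DNCB from control was 1.34 ± 0.35 (edgeR adjusted p = 0.0171), with an adjusted p of 0.0517 to 0.0753 without 1 of control replicates 1 and 2 or DNCB replicates 2 and 3. Leukocyte markers moved alongside it: Ptprc, the CD45 gene of leukocytes, ran from 0.689 to 1.78 FPKM in control and from 3.69 to 4.16 FPKM in DNCB skin, and 3 of 4 pan-leukocyte genes rose (Cd53, Coro1a and Ptprc). In RNA of whole skin, a gene's higher level can come from more cells of a type or from more RNA per cell, and these cannot be told apart.

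Icam1 (chr9:21015985-21028817, plus strand) encodes the ligand of the beta 2 integrins and is made by endothelium, leukocytes and activated keratinocytes. Control replicates had 5.46, 3.43 and 5.01 FPKM, DNCB replicates 15.3, 10.8 and 15.3 FPKM, scMSC replicates 6.81, 3.78 and 5.03 FPKM and scivMSC replicates 5.24, 7.29 and 4.27 FPKM. No DNCB library overlapped with any other group. The difference of DNCB from control was 1.39 ± 0.25 (edgeR adjusted p = 0.00289), which passed without any 1 library. By mean FPKM, Icam1 had the highest level in every group among Sele, Selp, Selplg, Icam1 and Vcam1, and keratinocyte genes moved with it, as Krt14 and Krt5 of the 4 listed rose. It overlaps Gm47079 on the other strand.

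Vcam1 (chr3:116109949-116129688, minus strand) encodes the ligand of the integrin VLA-4 on lymphocytes, monocytes and eosinophils. Its level was 0.743, 0.598 and 1.24 FPKM in control and 1.94, 2.18 and 2.45 FPKM in DNCB replicates, and 1.01, 0.523 and 0.660 FPKM in scMSC and 1.56, 1.76 and 0.413 FPKM in scivMSC replicates. The 3 DNCB libraries were above all others, yet the difference from control, 1.18 ± 0.44, did not pass (edgeR adjusted p = 0.0750). It passed without scivMSC replicate 3 (adjusted p = 0.0134) and in a fit of the 6 control and DNCB libraries alone (0.0188), with DESeq2 (0.0320) and with limma on log2(FPKM + 1) (0.0294). Fibroblast and mural genes, from cells that also can make VCAM-1, moved in parallel, with 3 of 6 higher (Col1a1, Pdgfrb and Pdgfra) and Cspg4 lower. Madcam1 (chr10:79664559-79668537, plus strand), the addressin of gut vessels, was listed at 0 in 8 of 12 libraries and reached at most 0.144 FPKM, in scivMSC replicate 1.

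**Figure D1:**
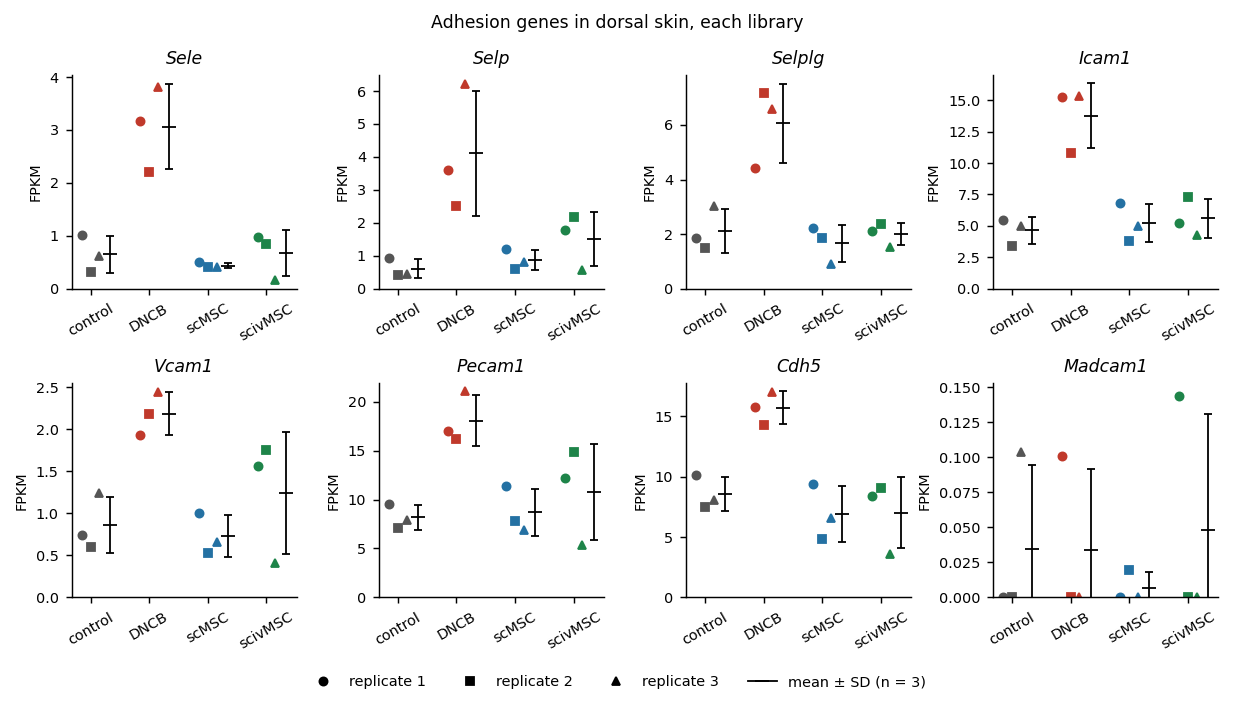
Level in FPKM (vertical axes, each from 0) of 8 genes in the 3 libraries of each group, with symbols for the replicate number and the mean ± SD beside them (bars end at 0). The DNCB libraries stood above the other groups for 7 of the 8 genes, including Pecam1 and Cdh5, and Madcam1 stayed at or below 0.144 FPKM. The share of all genes that separate in this way was not counted.

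The reference genes were not constant. Pecam1 (chr11:106654217-106750628, minus strand), found at endothelial contacts and also on platelets and leukocytes, had 9.54, 7.05 and 7.94 FPKM in control and 17, 16.2 and 21.1 FPKM in DNCB replicates. Its difference was 0.96 ± 0.30 (edgeR adjusted p = 0.0385). Cdh5 (chr8:104101625-104144511, plus strand, overlapping Gm29682 on the other strand), which encodes VE-cadherin, had 10.2, 7.46 and 8.08 FPKM in control and 15.8, 14.3 and 17 FPKM in DNCB replicates. All DNCB values of both genes were above all control values, although the Cdh5 difference, 0.69 ± 0.29, did not pass (adjusted p = 0.116). Neither call was firm: the adjusted p of Pecam1 was 0.050 to 0.140 without 1 of the 3 control or 3 DNCB replicates, scMSC replicate 2 or scivMSC replicate 1, and that of Cdh5 was 0.0404 without scivMSC replicate 3.

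Of 17 endothelial identity genes, 5 rose in DNCB skin and none fell, beside 12.9% and 12.4% of all genes, with a median log2 difference of 0.54 beside 0.02 over all genes. The 3 with the lowest adjusted p were Clec14a, a lectin of angiogenic endothelium, at 1.08 ± 0.23, the transcription factor Sox18 at 0.95 ± 0.27 and the secreted factor Egfl7 at 0.54 ± 0.17. The other 12 did not pass, among them the receptor genes Kdr and Tek, at 0.26 ± 0.32 and 0.30 ± 0.45. The list's summed level was 58.7 to 85.4 FPKM in control and 109 to 131 FPKM in DNCB libraries. Among 6 lymphatic genes only Pdpn rose, at 1.71 ± 0.28, a gene that keratinocytes and fibroblasts also express.

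Ackr1 (chr1:173331886-173333750, minus strand) encodes the atypical chemokine receptor of venular endothelium and red cells, which carries chemokines across the vessel wall. It differed from all other members. Control replicates had 7.83, 0.847 and 6.38 FPKM, DNCB replicates 0.610, 0.572 and 6.58 FPKM, scMSC replicates 6.61, 0.503 and 0.585 FPKM and scivMSC replicates 8.04, 0.802 and 0.886 FPKM. Each group held libraries at a high level of 6.38 FPKM or more and libraries at a low level of 0.886 FPKM or less, with none in between, so the 12 libraries fell into 2 levels that did not follow the groups. DNCB differed from control by -1.13 ± 1.34 (edgeR adjusted p = 0.591, 95% interval -4.09 to 1.83). With such a spread a difference of several-fold in either direction was not detectable.

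Cadm3, a neuronal adhesion gene, overlaps the start of Ackr1 on the same strand, so reads could be shared between their transcripts. Its level was 4.12, 2.14 and 4.53 FPKM in control, 3.87, 4.34 and 4.83 FPKM in DNCB, 4.70, 0.768 and 2.51 FPKM in scMSC and 5.35, 4.43 and 0.639 FPKM in scivMSC replicates. Within each of the 4 groups the libraries with high Ackr1 also had the highest Cadm3, by a wide margin in scMSC skin and a narrow one in DNCB skin. Across groups the levels of Cadm3 overlapped, as scivMSC replicate 2 had low Ackr1 beside 4.43 FPKM of Cadm3 and control replicate 1 high Ackr1 beside 4.12 FPKM. The part of Cadm3 in the 2 levels of Ackr1 was not tested, and no difference between groups can be read from Ackr1.

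**Figure D2:**
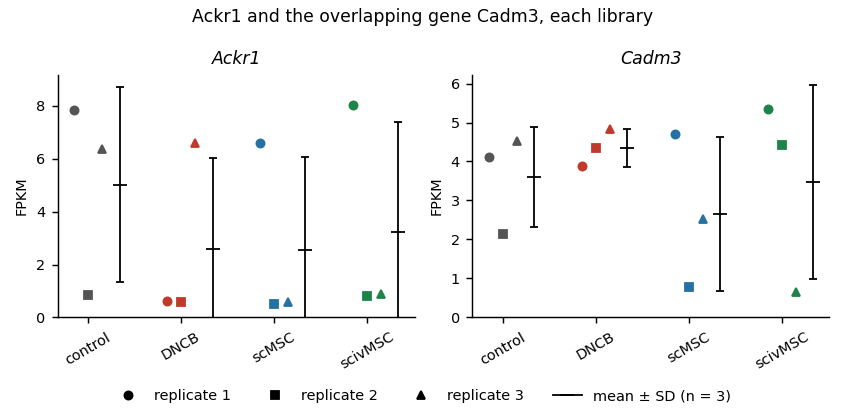
Ackr1 and the overlapping gene Cadm3 in FPKM (vertical axes, from 0) in the 3 libraries of each group, with the mean ± SD beside them (bars end at 0). The 5 libraries with high Ackr1, between 6.38 and 8.04 FPKM, come from all 4 groups and have the highest Cadm3 of their group, while Cadm3 runs from 0.639 to 4.43 FPKM in the libraries where Ackr1 is low.

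The partners of these molecules on leukocytes and in glycan synthesis were read alongside. Of 10 selectin partners tested, 8 rose with DNCB and none fell, beside 12.9% of all genes that rose and 12.4% that fell, which is the background for each list here. Cd44, a glycoprotein that E-selectin can bind, rose by 2.50 ± 0.26, Gcnt1, the branching enzyme of selectin ligand glycans, by 2.38 ± 0.31 and Chst2, a sulfotransferase of L-selectin ligands, by 2.46 ± 0.36 (log2, edgeR adjusted p at most 0.00127). Glycam1, Fut7 and Chst4 were below the limit of a mean of 0.1 FPKM over all libraries and were not tested. Fut7 had means of 0.174 FPKM in control, 0.143 FPKM in DNCB, 0 FPKM in scMSC and 0.0723 FPKM in scivMSC skin. Of 8 leukocyte integrin genes, Itgb1 and Itgal rose, at 1.23 ± 0.25 and 1.92 ± 0.41. Itgal is the alpha chain of LFA-1, a receptor of ICAM-1. Itgb1 had means of 31 FPKM in control and 82.5 FPKM in DNCB skin, beside 0.443 and 1.88 FPKM for Itgal. Which cells carried the RNA of the partner genes was not tested. The other 6 did not pass, and with 2 of 8 the list is too short to set apart from that background.

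The transmigration partners were mixed: Pvr and Plvap rose, at 0.69 ± 0.19 and 1.22 ± 0.37, while Cd99l2 fell, at -0.84 ± 0.16, and 6 of 9 did not pass. Of 14 genes for inducing cytokines, their receptors and NF-kB, 6 rose and none fell. Tnf, whose product induces Sele, Vcam1 and Icam1 in endothelium, rose by 5.12 ± 0.78, Il1r1, the receptor of IL-1, by 1.35 ± 0.24, and Nfkb1, a subunit of NF-kB, by 0.87 ± 0.17. All 5 neutrophil genes rose, with a summed level of 120 to 207 FPKM in control and 2454 to 3421 FPKM in DNCB libraries. None of 5 macrophage genes passed, although all 5 differences were positive, nor did any of 5 red cell genes. Of 5 T cell genes only Cd4 rose, and the list's median was -0.33. Cd3e, Cd3g and Cd3d were lower without passing, at -1.54 ± 0.71, -1.16 ± 0.46 and -0.33 ± 0.49, and Trac was higher without passing, at 1.85 ± 1.64. For the lists of transmigration partners and T cell genes, 2 of 9 and 1 of 5 higher are close to what 12.9% of all genes gives.

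Since Pecam1 rose and all DNCB values of Cdh5 were above control, each adhesion gene was also given as a percentage of the geometric mean of Pecam1 and Cdh5 in the same library. Sele was at 10.3%, 4.38% and 7.78% of that mean in control and at 19.3%, 14.6% and 20.1% in DNCB replicates. Selp was at 9.51%, 5.81% and 5.58% in control and at 21.9%, 16.6% and 32.8% in DNCB replicates. Relative to the junction genes, the DNCB libraries thus lay above the control libraries for both selectins, which describes the libraries and is no test. Icam1 also did not overlap, at 47.4% to 62.6% in control and 70.9% to 93.2% in DNCB, whereas Vcam1 (7.55% to 15.4% and 11.8% to 14.3%) and Selplg (18.7% to 37.8% and 27.0% to 47.2%) did.

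In the edgeR fit with Pecam1 and Cdh5 as the scale, only Selp rose with DNCB among the other 6 members, by 1.75 ± 0.42 (adjusted p = 0.00943), beside 1.94% of all genes higher and 19.1% lower on this scale. Sele was higher by 1.26 ± 0.49 and Icam1 by 0.57 ± 0.32, which did not pass (adjusted p = 0.0734 and 0.204). Selplg differed by 0.50 ± 0.43 and Vcam1 by 0.32 ± 0.38 (adjusted p = 0.394 and 0.536). The change of scale moved the median of all genes to -0.81, so a gene here has to exceed the rise of the junction genes. The Selp call was lost without DNCB replicate 3 (adjusted p = 0.0671) and Sele passed without scivMSC replicate 3 (0.0200) or with 17 endothelial genes as the scale (0.0469), and Icam1 without scivMSC replicate 3 (0.0482).

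**Figure D3:**
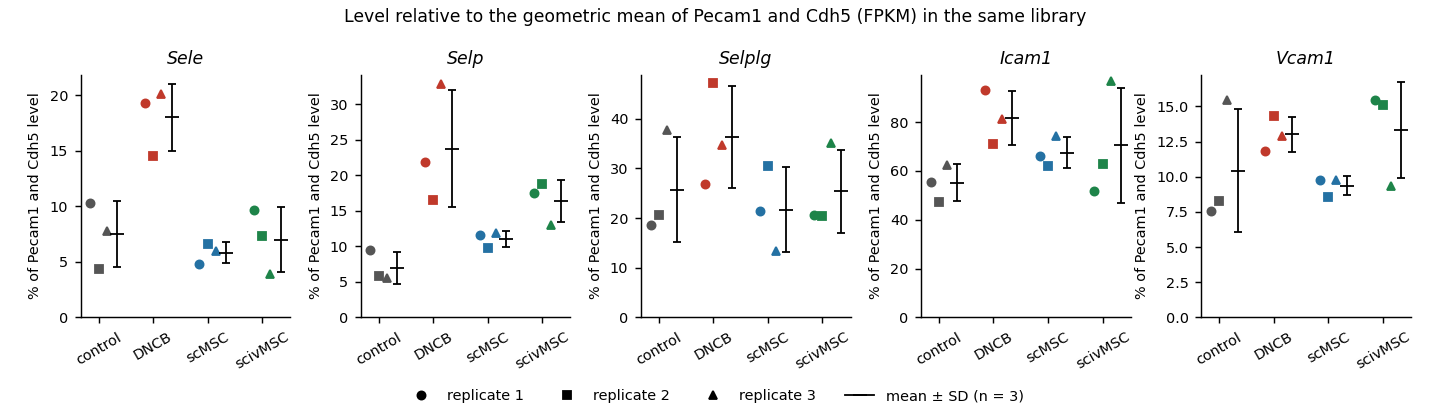
Level of 5 genes as a percentage of the geometric mean of Pecam1 and Cdh5 in the same library (vertical axes, from 0), in the 3 libraries of each group with the mean ± SD beside them. Sele and Selp in DNCB libraries lie above all control libraries, at 14.6% to 20.1% and 16.6% to 32.8%, while Selplg and Vcam1 overlap between control and DNCB.

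The second comparison asked how the adhesion genes stood after MSCs were given under the skin. In scMSC skin 7 of 8 members were lower than in DNCB skin and none higher, beside 5.77% of all genes lower and 6.95% higher. Sele fell 6.85-fold, by 2.78 ± 0.58 on the log2 scale (edgeR adjusted p = 0.0113), and Selp fell 4.68-fold, by 2.23 ± 0.52 (0.0181). Selplg fell by 1.84 ± 0.35 (0.00770), Icam1 by 1.39 ± 0.25 (0.00542) and Vcam1 by 1.56 ± 0.45 (0.0426). The 3 scMSC libraries lay below the 3 DNCB libraries for each of these genes. With limma on log2(FPKM + 1), where the pseudocount is above the mean scMSC level of each of Sele, Selp and Vcam1 and understates their change, the differences passed at -1.48 for Sele, -1.40 for Selp and -0.89 for Vcam1.

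The junction genes fell in scMSC skin as well. Pecam1 had 11.4, 7.76 and 6.92 FPKM, lower than DNCB by 1.04 ± 0.30 (edgeR adjusted p = 0.0459), and Cdh5 had 9.38, 4.80 and 6.61 FPKM, lower by 1.17 ± 0.30 (0.0272). All 6 values were below the lowest DNCB values of 16.2 and 14.3 FPKM. Of the 17 endothelial identity genes 6 were lower and none higher, and the list's summed level was 49.5 to 85.7 FPKM against 109 to 131 FPKM in DNCB libraries. Leukocyte markers moved with them, as 3 of 4 pan-leukocyte genes and all 5 neutrophil genes fell.

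The Sele, Selplg and Icam1 calls passed without any 1 library. The adjusted p of Selp was 0.0622 to 0.0750 without 1 of DNCB replicate 3 or scMSC replicates 2 and 3, and that of Cdh5 0.0594 to 0.104 without 1 of the DNCB replicates or scMSC replicates 2 and 3. Vcam1 and Pecam1 were the least firm, with 0.0513 to 0.145 and 0.0594 to 0.145 without any 1 of the DNCB replicates, control replicates 1 and 2, scMSC replicates 2 and 3 and scivMSC replicate 1, and for Pecam1 also control replicate 3. Both were lost with library size alone as the scale (0.0588 and 0.0608), with no filter on low values (0.0513 and 0.0602) and with limma on log2(FPKM + 0.1) (0.0571 and 0.0580), which each left 5 members lower.

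Relative to Pecam1 and Cdh5, the selectins alone passed as lower in scMSC skin. Sele was at 4.83%, 6.64% and 6.01% of the junction genes in scMSC replicates, under its 14.6% or more in DNCB skin, and Selp at 11.5%, 9.73% and 11.9%, under its 16.6% or more. On this scale Sele fell by 1.62 ± 0.49 (edgeR adjusted p = 0.0201) and Selp by 1.10 ± 0.41 (0.0390), while Selplg differed by -0.74 ± 0.43 (0.160), Vcam1 by -0.47 ± 0.38 (0.304) and Icam1 by -0.28 ± 0.32 (0.476, 95% interval -0.96 to 0.41). Vcam1 too lay wholly below DNCB, at 8.57% to 9.76% against 11.8% to 14.3%, without passing. Thus 2 of 6 members fell beside 1.77% of all genes, with 44.6% of all genes higher because the median of all genes stood at 1.17 on this scale. Without 1 of DNCB replicates 1 and 3 or scMSC replicates 2 and 3 the adjusted p of Sele was 0.0557 to 0.0784, and that of Selp was 0.0531 to 0.187 without any 1 of the 6 DNCB and scMSC libraries.

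The third comparison set the mixed route against DNCB. In scivMSC skin 4 of 8 members were lower and none higher, beside 3.6% of all genes lower and 4.56% higher. Sele fell 4.61-fold, by 2.21 ± 0.57 (edgeR adjusted p = 0.0385), Selplg by 1.60 ± 0.35 (0.0221), Icam1 by 1.3 ± 0.25 (0.0130) and Cdh5 by 1.17 ± 0.30 (0.0368). Selp differed by -1.45 ± 0.51 (0.110), Pecam1 by -0.75 ± 0.30 (0.161) and Vcam1 by -0.83 ± 0.44 (0.299). All 3 scivMSC libraries were below all DNCB libraries for these 7 genes, including those that did not pass, which describes the libraries and is no test. With DESeq2 Selp also passed (adjusted p = 0.0273), which made 5 members lower.

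Markers of other cells were lower alongside: all 5 neutrophil genes, 3 of 4 pan-leukocyte genes (Cd53, Coro1a and Ptprc), the keratinocyte genes Krt5 and Krt14 and, of 6 fibroblast and mural genes, Pdgfrb and Rgs5. Of the 17 endothelial identity genes only Egfl7 and Clec14a fell. The part of these cells in the members' values was not tested.

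The scivMSC group was uneven, and not only in these genes. Summed levels ran from 79.8 to 432 FPKM for fibroblast and mural genes, 33.2 to 294 FPKM for macrophage genes and 8.92 to 35.8 FPKM for pan-leukocyte genes. Wide ranges were not particular to it. Macrophage genes ran from 134 to 511 FPKM in control, and fibroblast and mural genes from 121 to 344 FPKM in scMSC libraries. DNCB libraries were narrower, at 541 to 571 FPKM and 780 to 979 FPKM for these lists. Whether the sampled skin differed in its make-up was not tested. Within the scivMSC group, replicate 3 had the lowest Sele, Vcam1, Pecam1 and Cdh5 of all 12 libraries, with Pecam1 at 5.35 FPKM beside 12.2 and 14.9 FPKM in replicates 1 and 2, and Cdh5 at 3.63 FPKM beside 8.39 and 9.05 FPKM. Its total of 65956147 estimated counts was within the range of the control libraries. Without it no member passed in scivMSC against DNCB: the adjusted p was 0.0511 for Icam1, 0.0650 for Sele, 0.0711 for Cdh5 and 0.0843 for Selplg, with log2 differences of -1.15, -1.75, -0.86 and -1.46. None passed without scivMSC replicate 1 either. The adjusted p of Sele was 0.0503 or more without 1 of 9 libraries, which were all but control replicates 1 and 2 and scMSC replicate 1. Cdh5 did not pass without 1 of control replicates 2 and 3 or any DNCB replicate (0.0533 to 0.105 with the scivMSC replicates above), and Selplg not without DNCB replicate 2 or 3 (0.0659 to 0.0843 likewise).

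As a share of the junction genes, Sele was at 9.70%, 7.31% and 3.89% in scivMSC replicates, all below DNCB. It was the 1 member of 6 that fell on this scale, by 1.35 ± 0.49 (edgeR adjusted p = 0.0353), beside 1.22% of all genes lower and 46.2% higher, with the median of all genes at 1.19. Its adjusted p was 0.0614 to 0.110 without 1 of the DNCB replicates or scivMSC replicate 3, and 0.0544 with Cdh5 alone as the scale. Selp was at 17.5%, 18.7% and 13%, overlapping DNCB, with a difference of -0.53 ± 0.40 (0.275). The ratio of Pecam1 to Cdh5 itself was not stable across groups, at 0.938 to 0.983 in control, 1.07 to 1.24 in DNCB, 1.05 to 1.62 in scMSC and 1.46 to 1.64 in scivMSC libraries, so a reference of these 2 genes depends on which carries it.

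**Figure D4:**
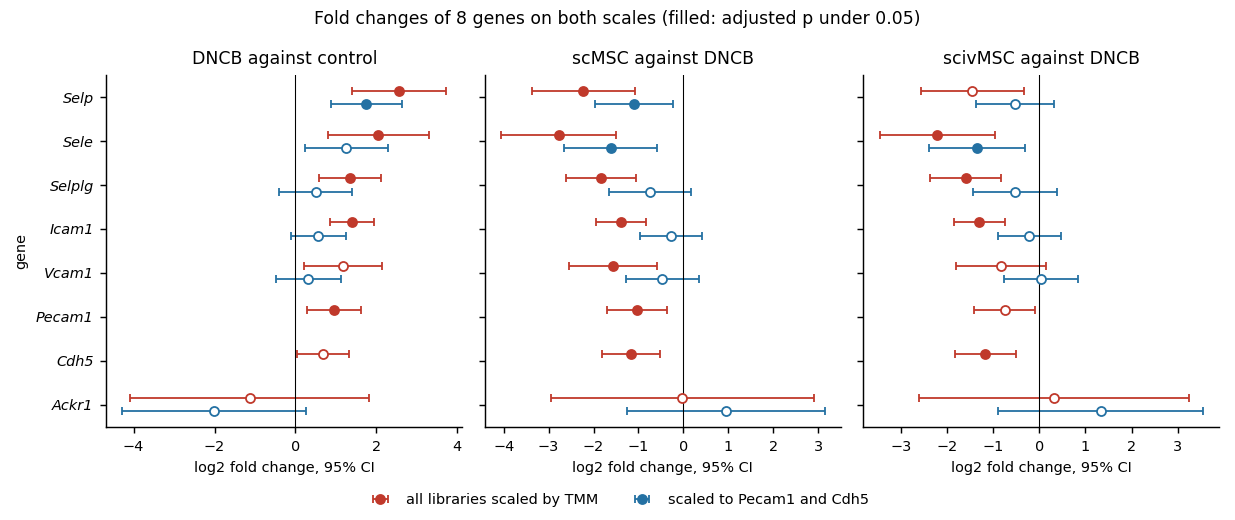
Log2 fold changes with 95% confidence intervals (horizontal axes) of 8 genes in the 3 comparisons with DNCB, from edgeR with libraries scaled by TMM (red) and scaled to Pecam1 and Cdh5 (blue, not drawn for those 2 genes). Filled points passed at an adjusted p under 0.05, which on the blue scale were Selp and Sele only.

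Against control, neither MSC group differed in any member by the test. In scMSC against control 0 of 8 passed, beside 10.4% of all genes higher and 8.12% lower, and in scivMSC against control 0 of 8, beside 7.11% higher and 6.13% lower. Sele in scMSC skin differed from control by -0.73 ± 0.55 (95% interval -1.96 to 0.49) and in scivMSC skin by -0.17 ± 0.55 (-1.38 to 1.05). Selp differed by 0.33 ± 0.50 (-0.78 to 1.44) in scMSC skin and by 1.10 ± 0.51 (-0.01 to 2.22, edgeR adjusted p = 0.184) in scivMSC skin. These intervals include differences of more than 2-fold, lower than control for Sele and higher for Selp, so equality with control was not shown. Icam1 was the closest, at 0.00 ± 0.24 (-0.54 to 0.54) and 0.09 ± 0.24 (-0.45 to 0.63). Relative to Pecam1 and Cdh5, Selp in both MSC groups lay above its 5.58% to 9.51% in control without overlap. On that scale it differed from control by 0.66 ± 0.41 in scMSC skin and by 1.22 ± 0.41 in scivMSC skin. Neither passed (edgeR adjusted p = 0.404 and 0.181).

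The 2 routes were not separated by the test in any of these genes. In scivMSC against scMSC 0 of 8 members passed, beside 0.00457% of all genes higher, which is 1 gene of 21890, and 0% lower. Selp was higher in scivMSC by 0.77 ± 0.50 (95% interval -0.33 to 1.88) and Vcam1 by 0.74 ± 0.44 (-0.23 to 1.70), in both cases with overlapping libraries in FPKM. Relative to Pecam1 and Cdh5, Selp did not overlap, at 13% to 18.7% in scivMSC and 9.73% to 11.9% in scMSC libraries. That difference, 0.57 ± 0.40 (-0.29 to 1.43), did not pass either. The adjusted p was 0.771 or more for all 8 members. That Selp, Pecam1 and Vcam1 passed against DNCB in scMSC and not in scivMSC skin is therefore no shown difference between the routes, and the comparisons with DNCB share the same 3 DNCB libraries.

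The partner genes fell with both treatments in part. Of the 10 selectin partners, 5 were lower and none higher in scMSC and likewise 5 in scivMSC skin against DNCB, beside 5.77% and 3.6% of all genes lower, among them Cd44, by 1.46 ± 0.25 and by 1.63 ± 0.25, and Chst2, by 1.95 ± 0.35 and by 1.40 ± 0.35. Gcnt1 did not fall with scMSC, at 0.02 ± 0.29, nor pass with scivMSC, at -0.80 ± 0.29. Of the 8 leukocyte integrin genes 4 were lower in scMSC and 2 in scivMSC skin, with Itgal at -1.94 ± 0.41 and -1.93 ± 0.41. Of the 14 inducing genes 7 and 4 were lower, with Tnf at -4.38 ± 0.75 and -3.98 ± 0.74, while Il1r1 and Nfkb1 did not pass in either. Of the platelet genes 2 fell in scMSC and 1 in scivMSC skin.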

How the data were processed

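Dorsal skin RNA (total RNA, standard Illumina libraries) of 12 mice was read from 1 table deposited by the authors. It gives, per gene and library, an estimated count, a whole number not normalized between libraries, and FPKM, which the authors scaled for transcript length and library size. The submitters' processing notes list Bowtie 0.12.2, HISAT2 2.0, StringTie 1.3.0 and mm8, whereas 33251 of 36287 identifiers shared with GENCODE M21 have their GRCm38 start and end, so positions are given as GRCm38.

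Genes whose mean over all libraries reached 0.1 FPKM entered the test of edgeR 4.0.16 (quasi-likelihood, TMM factors 0.887 to 1.06, common biological coefficient of variation 0.42) in R 4.3.3 on estimated counts, in a single model of the groups. A second fit used the geometric mean of the Pecam1 and Cdh5 counts as library scale. Standard errors were derived from the F statistic. DESeq2 1.42.0, limma 3.58.1, other scalings, counts divided by 4, a replicate block and each library left out were alternatives. The fit was tested on simulated data. Members and gene lists were chosen with earlier results of these data known. All 9 members were named, and of each further list at most the 3 genes with the lowest adjusted p that passed in DNCB against control. Kdr, Tek, Pdgfra, Rgs5, Glycam1, Fut7, Chst4 and Cadm3 were added after their values were seen. Outside this rule, Krt1, Krt10, Gp1bb, Gp1ba, Gp9, Cd3e, Cd3g, Cd3d and Trac were named as further genes of their lists that did not pass or were not tested. Intervals cover the spread between these mice and not losses before sequencing. Promoters are from RefSeq.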

Additional observations from a re-analysis of the deposited data

How the results depend on the processing

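Single-gene values under alternatives numbered 904, of which 782 kept their direction and their side of 0.05, 95 kept their direction but no longer passed, 10 newly passed and 17 changed sign. With 3 mice a group, leaving out 1 library moved the counts. Members higher in DNCB against control ranged from 2 to 7, members lower in scMSC against DNCB from 3 to 7 and in scivMSC against DNCB from 0 to 4. Counts of all genes ranged from 1541 to 3038 in scMSC against DNCB, 558 to 1982 in scivMSC against DNCB, 2317 to 4303 in scMSC against control, 1339 to 3079 in scivMSC against control and 1 to 5 between the MSC groups. Scaled to Pecam1 and Cdh5, members ranged from 0 to 3 (DNCB against control), 0 to 2 (scMSC against DNCB) and 0 to 1 (scivMSC against DNCB), and all genes from 1637 to 8634, 2225 to 13272 and 1427 to 12707.

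Ackr1 changed sign with single libraries, from -2.17 to 2.08 in scMSC and from -1.57 to 2.42 in scivMSC against DNCB, and when scaled to Pecam1 and Cdh5 from -0.72 to 2.84 and from -0.071 to 3.23. Sele in scivMSC against control went from -0.55 to 0.31, and was 0.037 with library size alone. Scaled Vcam1 in scivMSC against DNCB went from -0.086 to 0.23, and was -0.34 with 17 endothelial genes and -0.17 with Pecam1 alone as the scale.

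On limma's log2(FPKM + 1) scale Sele in scivMSC against DNCB passed at -1.3 (edgeR -2.21). With DESeq2 3215 genes passed in scivMSC against DNCB (edgeR 1787) and 138 between the MSC groups (edgeR 1), where limma gave 2 with either pseudocount and the fit of 6 libraries 3. Fits of 6 libraries gave 2 members lower in scivMSC against DNCB, and 2131 and 1103 genes in scMSC and scivMSC against control (4049 and 2899 with all libraries). Asking also for a fold over 2 left 3098, 2040 and 1500 genes in DNCB, scMSC and scivMSC against control, by construction. With 17 endothelial genes as the scale 2 members rose with DNCB, and 4864 and 1805 genes passed in scMSC and scivMSC against DNCB. With Cdh5 alone 0 members fell in scivMSC against DNCB, and with Pecam1 alone 4172 genes passed. Scales of Cdh5 or Pecam1 alone were chosen after seeing the data. Causes were not tested except where stated.

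Replicate numbers did not pair the mice: same-numbered libraries correlated at -0.348 to 0.253 after removing group means, over 18 pairs, and 2 of 12 libraries correlated best with their own number. With a replicate block Vcam1 and Pecam1 in scMSC against DNCB had adjusted p of 0.0777 and 0.0516, Sele in scivMSC against DNCB 0.0559, and scaled Selp in scMSC against DNCB 0.0538, which left 1 member lower there. The block gave 1179 genes and a sign change of Ackr1, to -0.15, in scivMSC against DNCB.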

Other observations

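Both pathways that the deposited table's KEGG column names for this process reach beyond the 9 genes. They were added after the data were seen and are described by counts. Of 100 tested genes of leukocyte transendothelial migration, 32 rose and 11 fell in DNCB against control, 12 were higher and 28 lower in scMSC against DNCB, and 8 and 23 in scivMSC against DNCB. Over all genes the shares were 12.9% higher and 12.4% lower, 6.95% and 5.77%, and 4.56% and 3.6%, so the 11 that fell with DNCB were at about the background. The median log2 difference was 0.41 with DNCB and -0.28 and -0.25 with the MSC treatments, beside 0.02 over all genes in each. The 2 genes with the lowest adjusted p in DNCB against control were the tight junction gene Cldn23, at -4.33 ± 0.32, and Vasp, a regulator of actin filaments, at 1.24 ± 0.13. Against DNCB, Cldn23 was higher by 3.38 ± 0.31 in scMSC and by 3.00 ± 0.30 in scivMSC skin, and Vasp was lower by -1.13 ± 0.13 and -1.02 ± 0.13. Of 128 tested genes of the cell adhesion molecule pathway, 26 (20.3%) rose and 27 (21.1%) fell with DNCB, 13 (10.2%) were higher and 22 (17.2%) lower in scMSC against DNCB, and 8 (6.25%) and 12 (9.38%) in scivMSC against DNCB.

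For each of 5 members the 3 genes with the most similar pattern were taken over the 12 libraries, by Pearson's r of log2(FPKM + 0.1) among 14386 genes whose mean reached 1 FPKM. For Sele these were Eng (0.966), Tie1 (0.960) and Itga6 (0.960), of which Eng and Tie1 are endothelial receptor genes. For Selp they were Myadm (0.981), Klf7 (0.979) and Plod3 (0.976), for Icam1 Elk3 (0.973), Ppp1r18 (0.972) and Emilin1 (0.972), and for Vcam1 Inpp5d (0.979), Ifi202b (0.973) and Samhd1 (0.971). No gene came as close to Ackr1, where Aatk reached 0.849, Vgll3 0.834 and Cd1d1 0.824. The libraries share the group structure, so these values mix differences between and within groups. Among the members, Ackr1 correlated with the other tested 7 at 0.06 to 0.26, whereas those 7 correlated with one another at 0.74 to 0.94.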
